A study of Mus musculus with 4 samples.

Results

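The genes of titin, of the M-band and of the myosin-binding proteins were followed in 4 RNA sequencing libraries from the mouse semimembranosus, a hamstring muscle of the thigh. The members were chosen by symbol: Ttn, Obsl1, Myom1, Myom2, Myom3, Mybpc1, Mybpc2 and Mybph, which are 8 of the 55401 genes in the files, and all 8 were among the 13533 genes with enough counts to be tested. The IVS_diosmin libraries (n = 2) came from mice dosed by gavage with diosmin, a plant flavonoid taken for venous disease, at 40 mg per kg each day. The IVS libraries (n = 2) came from mice that received saline by the same route. Both groups were C57BL/6 mice aged 8 weeks, and in both the left external iliac vein had been tied over a 30-gauge needle to narrow it, so no library shows the muscle without the stenosis. The labels do not say whether the replicates are separate animals, so a p-value here speaks for the spread among the 4 libraries, part or all of which may be technical.

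The sarcomere is the contractile unit of striated muscle, in which thick filaments of myosin slide past thin filaments of actin. Titin is a giant protein that runs from the Z-disc at the sarcomere's edge to the M-band at its centre and works as a molecular spring. At the M-band, the myomesins link neighbouring thick filaments, and obscurin-like 1 ties titin and myomesin together. The myosin-binding proteins C and H sit along the thick filament, where the C proteins tune how myosin heads meet actin. Several of these proteins have forms that differ between slow, fatigue-resistant fibres and fast fibres.

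Of the 8 members, 3 were higher with diosmin at an adjusted p under 0.05 (edgeR quasi-likelihood test, Benjamini-Hochberg adjustment over all genes tested) and none was lower. These were Myom3, a myomesin gene, Mybph, the myosin-binding protein H, and Mybpc1, the slow-type myosin-binding protein C, with 6.81-, 3.25- and 1.90-fold higher levels in the diosmin libraries. Over all genes tested, 2.96% passed the same test, 1.17% as higher and 1.78% as lower. At an unadjusted p under 0.05 the members held 5 higher and 1 lower, where 7.91% of all genes tested were higher and 8.91% lower. DESeq2 called 3 members higher and 0 lower, beside 2.7% higher and 3.62% lower of the 9597 genes to which it gave an adjusted p. The median log2 fold change of the 8 members was 0.47, beside 0.01 over all genes tested. In 7 members both diosmin libraries lay above both IVS libraries, and in Obsl1 both lay below; 23.4% of all genes tested had the first arrangement and 24.1% the second. Leaving out IVS_diosmin replicate 1 left 1 member past the threshold, Myom3.

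**Figure D1:**
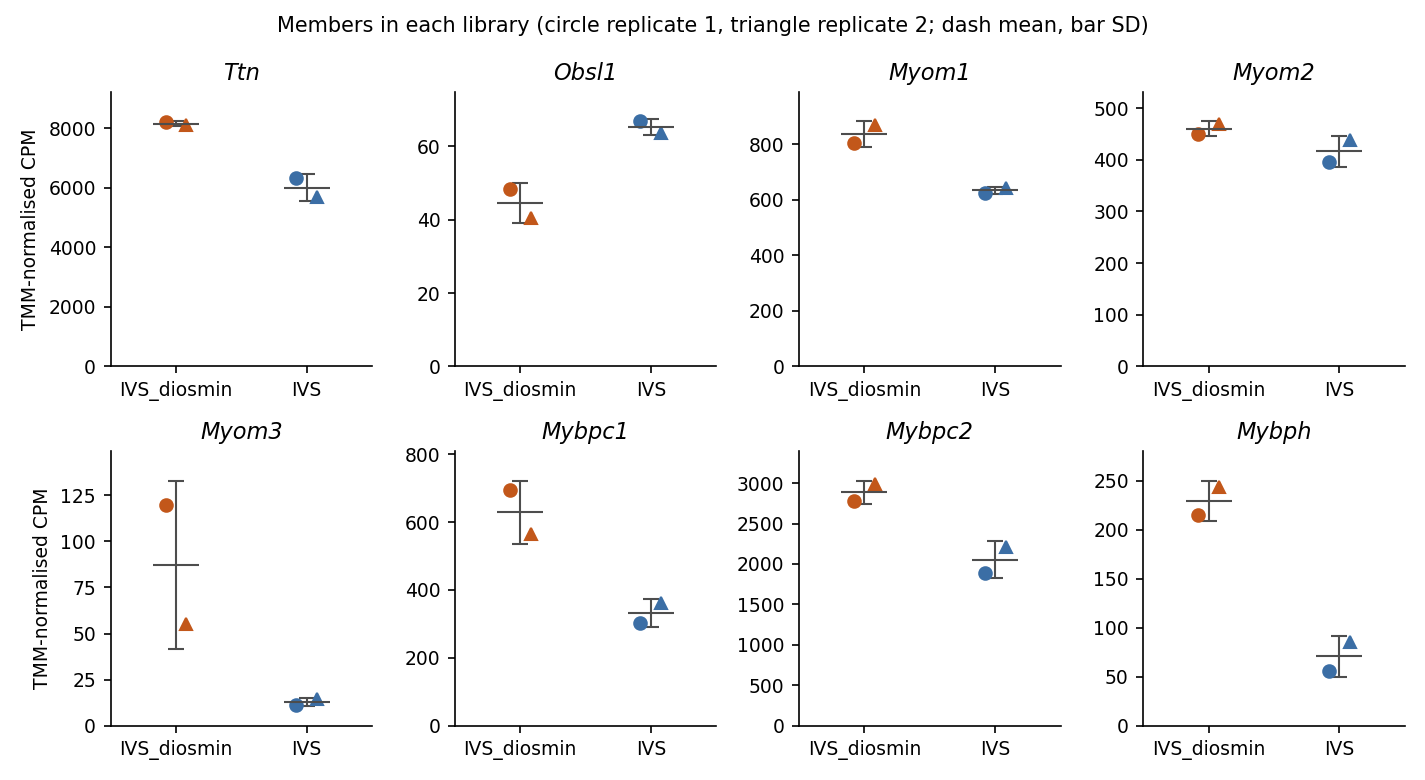
TMM-normalised CPM (counts scaled to a common library size) of each member, with IVS_diosmin libraries in orange at the left and IVS libraries in blue at the right of each panel; dashes are group means and bars are SDs (n = 2). The diosmin points of Myom3 lie at 120 and 55.0 CPM, and its IVS points at 11.1 and 14.5 CPM.

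Gene counts per library ran from 13056650 to 15324354. The groups also differed in signs that bear on RNA quality and tissue makeup. Rn7sk, a noncoding RNA gene listed as a quality marker, was called lower with diosmin (log2 -1.94 ± 0.30, adjusted p = 0.0063). It had 11.9 and 5.97 CPM with diosmin and 34.6 and 33.5 CPM in IVS. An rRNA gene, CT010467.1, took 1.16% and 0.936% of gene counts in the diosmin libraries and 4.14% and 3.80% in the IVS libraries. Reads aligned to more than 1 place are in no gene's count. Their summary line held 45.6% and 43.6% of all counts with diosmin and 37.7% and 38.8% in IVS, summary lines included. Muscle fibre identity was present in all libraries: 5 markers (Acta1, Ckm, Mb, Des and Tcap) summed to 41268 and 44122 CPM with diosmin and to 30666 and 38879 CPM in IVS, with Mb and Des past the threshold as higher. Mb missed it without IVS replicate 2 (adjusted p = 0.326) or diosmin replicate 1 (0.347), and Des without any 1 library (0.105 to 0.249). The 9 slow fibre markers summed to 3565 and 1369 CPM with diosmin and to 54.4 and 47.5 CPM in IVS, with 8 of 9 past the threshold as higher, and 7 to 9 when a library was left out. The 10 fast fibre markers summed to 89117 and 89486 CPM with diosmin and to 108719 and 118257 CPM in IVS, with 1 higher and 2 lower. Without IVS replicate 2 or diosmin replicate 1, 0 were called, and without diosmin replicate 2, 1 higher and 0 lower. The 6 endothelial markers summed to 149 and 143 CPM with diosmin and to 315 and 290 CPM in IVS, with 3 of 6 past the threshold as lower (Cdh5, Pecam1 and Kdr). That number was 2 without either IVS replicate, 0 without diosmin replicate 1 and 1 without diosmin replicate 2. Cardiac markers summed to 11.04 to 21.7 CPM with diosmin and 4.52 to 8.94 CPM in IVS, with Mybpc3 and Myl7 at 0 counts in every library. The 4 Schwann cell markers, with 0 called, summed to 49.3 and 88.0 CPM with diosmin and to 31.3 and 175 CPM in IVS. Beside these marker calls, 1.17% of all genes tested were called higher and 1.78% lower. What part these group differences have in the members' values was not tested. In bulk tissue, a change in the number of fibres of a type and a change in RNA per fibre cannot be told apart.

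Ttn, which encodes titin, lies on mm10 chromosome 2 from 76703980 to 76982547 on the minus strand and is by far the longest member, with 116825 bases of exon. Ttn had 8202 and 8099 CPM in the diosmin libraries and 6317 and 5690 CPM in the IVS libraries. The groups did not overlap, and the diosmin libraries lay close to each other (8150 ± 72.9 CPM with diosmin and 6003 ± 443 CPM in IVS, SD, n = 2 each). The log2 fold change was 0.44 ± 0.20 (SE), with an unadjusted p = 0.0493 and an adjusted p = 0.295, so Ttn did not pass the threshold. The raw counts behind these levels, from 70022 to 116661 reads, make Ttn the deepest-counted member.

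The myomesin genes gave 1 clear difference. Myom3 (chromosome 4, 135759715 to 135815564), whose protein is the myomesin described in intermediate-speed fibres of the mouse, had 120 and 55.0 CPM in diosmin replicates 1 and 2 and 11.1 and 14.5 CPM in IVS replicates 1 and 2. Both diosmin libraries were well above both IVS libraries, but replicate 1 was more than 2 times as high as replicate 2, so the diosmin mean of 87.3 CPM carried an SD of 45.7 CPM, against 12.8 ± 2.40 CPM in IVS. The log2 fold change was 2.77 ± 0.37 (adjusted p = 0.00947). It was 2.1 (adjusted p = 0.0288) without diosmin replicate 1 and 3.21 (adjusted p = 1.17e-05) without diosmin replicate 2, and Myom3 was past the threshold under each of the 12 alternative settings. The slow fibre marker sum was also higher in diosmin replicate 1 than in replicate 2, at 3565 and 1369 CPM.

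Myom1 (chromosome 17, 71002633 to 71126856) encodes myomesin 1, the form found in all striated fibres. It had 805 and 870 CPM with diosmin and 625 and 643 CPM in IVS, with no overlap between the groups. Its log2 fold change of 0.40 ± 0.20 did not pass the threshold (adjusted p = 0.334). Myom2 (chromosome 8, 15057653 to 15133541) encodes M-protein, the myomesin of fast fibres, and was the member with the smallest difference. It had 450 and 470 CPM with diosmin and 395 and 438 CPM in IVS (log2 0.14 ± 0.20, adjusted p = 0.795).

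Obsl1 (chromosome 1, 75479310 to 75506452, minus strand), the gene of obscurin-like 1, was the only member with lower values. Obsl1 had 48.3 and 40.6 CPM in the diosmin libraries and 66.8 and 63.8 CPM in the IVS libraries. The groups were apart by more than the spread within either (44.5 ± 5.46 CPM with diosmin and 65.3 ± 2.16 CPM in IVS). The log2 fold change was -0.55 ± 0.20, with an unadjusted p = 0.0165 and an adjusted p = 0.173, so this difference did not pass the threshold either.

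Mybpc1 (chromosome 10, 88518279 to 88605152, minus strand) encodes the slow-type myosin-binding protein C, which fast fibres also make. It had 695 and 564 CPM in diosmin replicates 1 and 2 and 302 and 362 CPM in IVS replicates 1 and 2, so the lowest diosmin library was above the highest IVS library. The means were 629 ± 92.6 CPM with diosmin and 332 ± 42.1 CPM in IVS, or 0.92 ± 0.21 on the log2 scale (adjusted p = 0.0396). This call lay close to the threshold. It was lost when any 1 library was left out, with an adjusted p of 0.283 without diosmin replicate 1, 0.0584 without diosmin replicate 2, 0.177 without IVS replicate 1 and 0.169 without IVS replicate 2, and log2 fold changes from 0.77 to 1.05.

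Mybpc2 (chromosome 7, 44501699 to 44524656, minus strand), the gene of the fast-type myosin-binding protein C, had 2785 and 2989 CPM with diosmin and 1889 and 2216 CPM in IVS. The groups did not overlap, but the log2 fold change of 0.49 ± 0.20 did not pass the threshold (unadjusted p = 0.0319, adjusted p = 0.239). The annotated exons of Gm44646 on the opposite strand cover 192 bases of Mybpc2 exon. Gm44646 had 0.314 and 0.321 times the counts of Mybpc2 in the diosmin libraries and 0.387 and 0.357 times in the IVS libraries, so the levels of both are uncertain, because the libraries are not described as keeping the strand.

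Mybph (chromosome 1, 134193448 to 134201232, plus strand) encodes myosin-binding protein H, a shorter relative of the C proteins in the thick filament. It had 215 and 244 CPM in the diosmin libraries and 55.6 and 85.7 CPM in the IVS libraries. The groups were far apart, at 230 ± 20.4 CPM with diosmin and 70.7 ± 21.3 CPM in IVS, and here diosmin replicate 2 was the higher of its pair, unlike Myom3 and Mybpc1. The log2 fold change was 1.70 ± 0.24 (adjusted p = 0.00389). Of the 4 fits that left out a library, the one without diosmin replicate 1 missed the threshold (log2 1.79, adjusted p = 0.0740).

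The count of Mybph cannot be separated from that of its neighbour. Exons of Adora1, the adenosine A1 receptor gene on the opposite strand, cover 1162 bases of Mybph exon, which is 49.9% of its exonic length. Adora1 had 2114 and 2743 reads in the diosmin libraries and 791 and 824 reads in the IVS libraries, or 0.757 and 0.780 times the count of Mybph with diosmin and 0.813 and 0.781 times in IVS. Adora1 was called higher as well (log2 1.66 ± 0.23, adjusted p = 0.00389), a call that was lost without diosmin replicate 1 (adjusted p = 0.0717). Whether the reads assigned to either gene came from one strand or both cannot be told apart in these files, so both levels are uncertain.

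**Figure D2:**
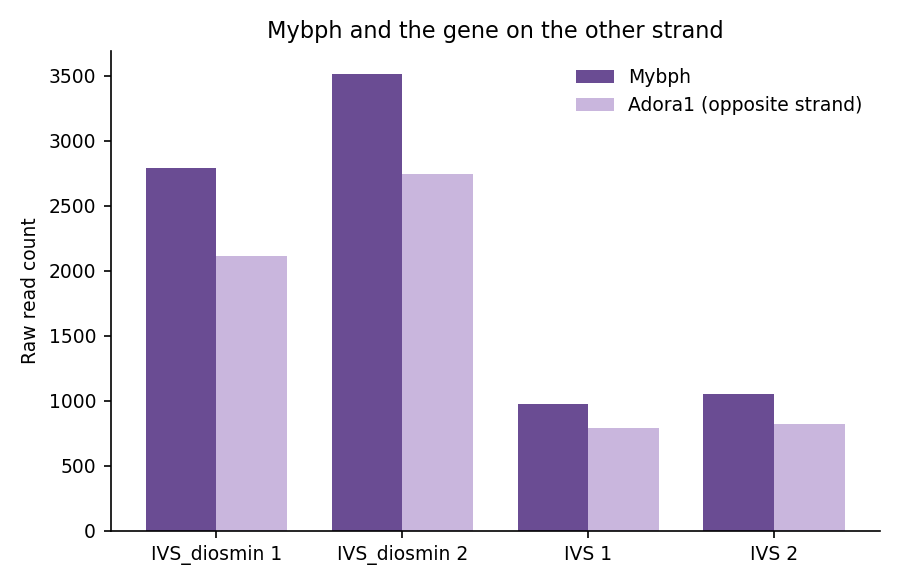
Raw read counts of Mybph (dark) and of Adora1 on the opposite strand (light) in each library, with the IVS_diosmin libraries at the left. Adora1 stood at 0.757 to 0.813 times Mybph in all 4 libraries while both were higher with diosmin.

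**Figure D3:**
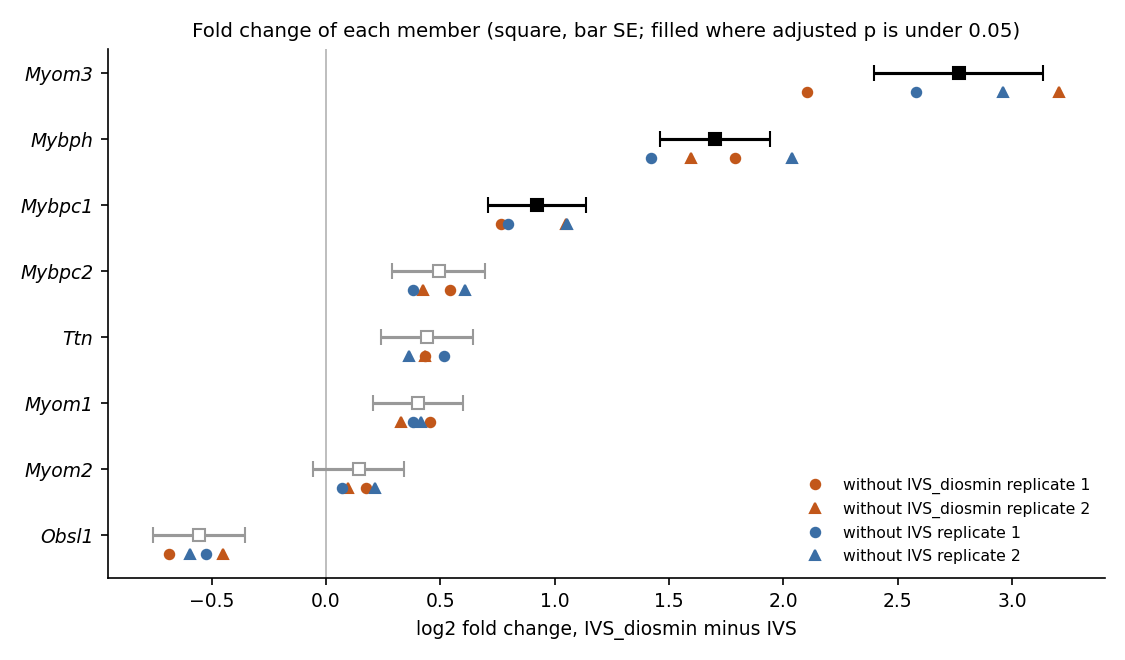
Log2 fold change of each member, IVS_diosmin minus IVS, with its standard error (squares, filled where the adjusted p is under 0.05) and the value when each library is left out (small circles and triangles below). Obsl1 lies below 0, and the range of Myom3 is the widest, from 2.1 to 3.21.

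The promoters of the 3 members past the threshold are shown so that the letters just upstream of their starts can be compared. They are RefSeq sequences of GRCm38.p6, the build that mm10 names, from 250 bases before to 50 bases after an annotated start. Of the 8 members, 7 had an entry. The window of Myom1, chr17:71019307-71019606, lies inside the gene as placed above and not at its start at 71002633. Capitals mark E-boxes, the site of myogenic basic helix-loop-helix factors (CANNTG), MCAT elements, the site of TEAD factors (CATTCC), the MEF2 consensus and the CArG box of SRF, each searched on both strands. The promoters span chr4:135759465-135759764 on the plus strand for Myom3, chr10:88605103-88605402 on the minus strand for Mybpc1 and chr1:134193198-134193497 on the plus strand for Mybph.
Myom3: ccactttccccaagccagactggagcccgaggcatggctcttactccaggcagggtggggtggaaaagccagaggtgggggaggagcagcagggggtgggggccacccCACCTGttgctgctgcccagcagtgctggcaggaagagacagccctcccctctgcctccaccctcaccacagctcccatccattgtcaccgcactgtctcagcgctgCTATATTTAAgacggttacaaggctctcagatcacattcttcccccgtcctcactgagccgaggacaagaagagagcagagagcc
Mybpc1: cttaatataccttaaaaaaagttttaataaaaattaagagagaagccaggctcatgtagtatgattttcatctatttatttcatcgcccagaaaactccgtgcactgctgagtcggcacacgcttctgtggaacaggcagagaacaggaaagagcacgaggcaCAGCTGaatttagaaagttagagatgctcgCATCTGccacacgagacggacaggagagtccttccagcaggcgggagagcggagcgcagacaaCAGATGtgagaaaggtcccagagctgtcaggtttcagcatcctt
Mybph: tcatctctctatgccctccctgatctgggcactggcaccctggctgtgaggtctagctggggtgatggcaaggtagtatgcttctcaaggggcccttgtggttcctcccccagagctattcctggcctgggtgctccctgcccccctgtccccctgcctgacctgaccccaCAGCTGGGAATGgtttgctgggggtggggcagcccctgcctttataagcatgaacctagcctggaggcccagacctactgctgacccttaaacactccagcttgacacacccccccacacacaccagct
In these windows no marked motif overlapped another. Myom3 held 1 E-box and a MEF2 match that began 35 bases before the start. Mybpc1 held 3 E-boxes and no other marked motif. Mybph held 1 E-box that began 79 bases before the start, with an MCAT element directly after it. Among the members not past the threshold, Ttn held a MEF2 match as well, and Ttn and Mybpc2 an MCAT element each. Myom1 held the only CArG box, in its window inside the gene. All 7 member promoters held an E-box, beside 72.3% of the 32851 promoters of that length, 3 held an MCAT element, beside 14.7%, 2 a MEF2 match, beside 3.19%, and 1 a CArG box, beside 1.63%. A match describes the letters and not a bound site.

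Levels of different members were compared per length, as RPKM (TMM-normalised counts per kilobase of annotated exon, on the CPM scale). In the diosmin libraries the order of mean RPKM was Mybpc2 at 799, Mybpc1 at 139, Mybph at 98.6, Myom1 at 80.1, Ttn at 69.8, Myom2 at 51.9, Myom3 at 14.5 and Obsl1 at 5.25, and no neighbours in this order overlapped between libraries. In the IVS libraries it was Mybpc2 at 568, Mybpc1 at 73.3, Myom1 at 60.6, Ttn at 51.4, Myom2 at 47.1, Mybph at 30.3, Obsl1 at 7.71 and Myom3 at 2.13 RPKM, and there Ttn and Myom2 overlapped. Mybph thus stood at rank 3 in the diosmin libraries and at rank 6 in the IVS libraries, and Myom3 and Obsl1 changed places at the low end. How reads from the 49.9% of Mybph exon shared with Adora1 were counted is not known, so the rank of Mybph is uncertain in both groups. With the length of the longest transcript in place of all annotated exon, 4 members changed rank in each group, among them Myom1, which then stood above Mybph in the diosmin libraries and above Mybpc1 in the IVS libraries.

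The makeup of the related members was then compared within each library, where depth cancels. Myom3 made up 13.4% and 6.26% of the myomesin level per length in the diosmin libraries and 1.74% and 2.12% in the IVS libraries. The share of Myom2 was lower with diosmin, at 34.4% and 36.5%, against 42.0% and 43.6% in IVS, and the share of Myom1 overlapped between the groups, at 52.2% and 57.2% with diosmin and 56.2% and 54.2% in IVS. Mybpc1 made up 16.6% and 13.1% of the summed level of Mybpc1 and Mybpc2 with diosmin and 11.3% and 11.5% in IVS. The diosmin values of Mybpc1 were both higher, but differed from each other by more than the lower of them differed from IVS. The size of these shares depends on the gene length used. With the longest transcript in place of all annotated exon, the mean Myom3 share differed by 5.00 points (IVS_diosmin minus IVS) in place of 7.91. The difference was -6.13 in place of -7.36 for Myom2 and 1.13 in place of -0.55 for Myom1. For Mybpc1 it was 3.79 in place of 3.42. For each share whose groups did not overlap, the exact 2-sided permutation test gave p = 0.333, the smallest that 2 libraries against 2 allow.

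**Figure D4:**
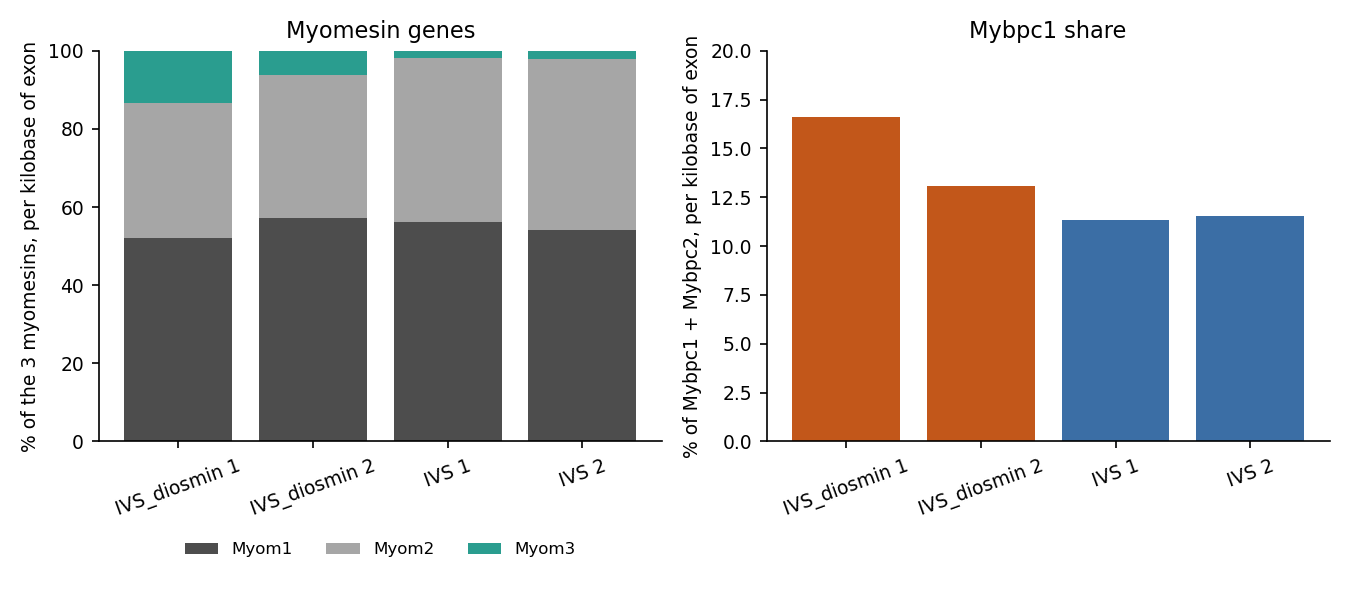
Share of each myomesin gene in the summed level of all 3 (left, % of RPKM) and share of Mybpc1 in the summed level of Mybpc1 and Mybpc2 (right, % of RPKM) in each library, diosmin libraries at the left of each panel. With all annotated exon as gene length, Myom3 makes up 13.4% and 6.26% of the myomesin level with diosmin and 1.74% and 2.12% in IVS.

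Set against Ttn in the same library, Myom1 and Mybpc2 had ratios that overlapped between the groups, with mean differences of -0.04 and 0.05 on the log2 scale. The other members had ratios to Ttn that did not overlap. The log2 ratio of Myom2 to Ttn was -0.47 and -0.38 with diosmin and -0.28 and 0.02 in IVS, and that of Obsl1 was -3.62 and -3.85 with diosmin and -2.78 and -2.69 in IVS. Those of Myom3, Mybph and Mybpc1 were higher with diosmin by 2.23, 1.29 and 0.48 on average (exact permutation p = 0.333 for each, the smallest possible).

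The tested genes whose profile over the 4 libraries was nearest to each called member were found among 6114 genes with a mean of at least 10 CPM, by root-mean-square distance of centred log2 CPM. For Myom3 these were Tpm3, the slow tropomyosin gene, Irf7, an interferon regulatory factor, and Csrp3, the muscle LIM protein, at distances of 0.13, 0.13 and 0.22. For Mybpc1 they were Abra, an actin-binding protein of muscle, Colq, the collagen tail of acetylcholinesterase, and Acadl, an enzyme of fatty acid oxidation, at 0.03, 0.07 and 0.07. For Mybph the nearest was Adora1, its opposite-strand neighbour, at 0.04, and then Aox1, an aldehyde oxidase, and Sord, sorbitol dehydrogenase, at 0.29 and 0.30. With 4 libraries, a near profile describes these libraries only.

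Among 15 tested genes of titin ligands and titin maintenance, 3 rose and 1 fell (all genes tested, 1.17% and 1.78%). The median log2 fold change was 0.52, beside 0.01 over all genes tested. At an unadjusted p under 0.05 there were 5 higher and 1 lower (all genes tested, 7.91% and 8.91%). DESeq2 called 4 higher and 1 lower (all genes, 2.7% and 3.62%). Csrp3 rose to 83.8 and 44.9 CPM with diosmin, against 11.9 and 11.6 CPM in IVS (log2 2.45 ± 0.29, adjusted p = 0.0027). Fhl1, a LIM protein known to bind titin, had a log2 increase of 1.78 (adjusted p = 0.00347). Smyd2, a methyltransferase that helps keep titin stable, had one of 1.15 (adjusted p = 0.0151). Hspb1, a small heat shock protein that binds unfolded titin, fell by 1.39 (adjusted p = 0.0077). Csrp3 was past the threshold without each library in turn, and Fhl1 missed it without diosmin replicate 1 (adjusted p = 0.0905). Smyd2 missed it without any 1 library (0.0574 to 0.137), and Hspb1 without diosmin replicate 1 (0.0717) and IVS replicate 2 (0.0676). The most abundant members that did not pass were Actn3, the fast alpha-actinin that anchors titin at the Z-disc, with 6673 CPM with diosmin and 4511 CPM in IVS (adjusted p = 0.183), and Tcap, which caps titin's end there, with 2940 CPM with diosmin and 3673 CPM in IVS (adjusted p = 0.482).

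Among 10 tested M-band partners and genes of thick filament assembly, 1 rose and 0 fell (all genes tested, 1.17% and 1.78%). The median log2 fold change was 0.34. At an unadjusted p under 0.05 there were 4 higher and 1 lower (all genes tested, 7.91% and 8.91%), and DESeq2 called 3 higher and 1 lower (all genes, 2.7% and 3.62%). The called gene was Smyd1, a muscle methyltransferase and myosin chaperone, at 310 and 313 CPM with diosmin and 168 and 124 CPM in IVS (log2 1.09 ± 0.22, adjusted p = 0.0214). Smyd1 missed the threshold without IVS replicate 2 (adjusted p = 0.239), without diosmin replicate 1 (0.174) and without diosmin replicate 2 (0.0640). Ckm, the muscle creatine kinase that binds the M-band, was at 16979 CPM with diosmin and 16439 CPM in IVS (log2 0.05, adjusted p = 0.952). Speg, which encodes a kinase related to titin and did not pass either, had 605 and 644 CPM with diosmin and 400 and 330 CPM in IVS (log2 0.78, adjusted p = 0.0674). The cardiac myosin-binding protein C gene Mybpc3 had 0 reads in every library, and the related Mybphl had 1 read in all, so neither was tested.

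A list of 14 tested genes held myosin heavy and light chains, which the members bind or cross-link, and Mylk2, a kinase of light chains. Of the 14, 4 rose and 0 fell (all genes tested, 1.17% and 1.78%). Mylk2 itself differed little (log2 0.01). The median log2 fold change was 1.48. At an unadjusted p under 0.05 there were 7 higher and 0 lower (all genes tested, 7.91% and 8.91%), and DESeq2 called 6 higher and 0 lower (all genes, 2.7% and 3.62%). The called genes were Myh7 and Myl3, a heavy and a light chain of slow-type myosin, Myh7b, another heavy chain, and Myh1, the fast IIx heavy chain. Their log2 fold changes were 8.79, 5.49, 3.71 and 1.17. Counts were low in the IVS libraries, at 30 and 27 reads for Myh7 and 36 and 30 for Myl3, so the size of their ratios is imprecise. With diosmin, Myh7 had 1259 and 457 CPM. On the same log2 scale the rise of Myom3 was 2.77 and that of Mybpc1 0.92, and the difference between genes was not tested. Myh4 and Myl1, the most abundant chains that did not pass, had log2 fold changes of -0.24 (adjusted p = 0.621) and 0.02 (adjusted p = 0.981). The call of Myh1 was lost when IVS replicate 2 (adjusted p = 0.239) or diosmin replicate 1 (0.260) was left out.

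**Figure D5:**
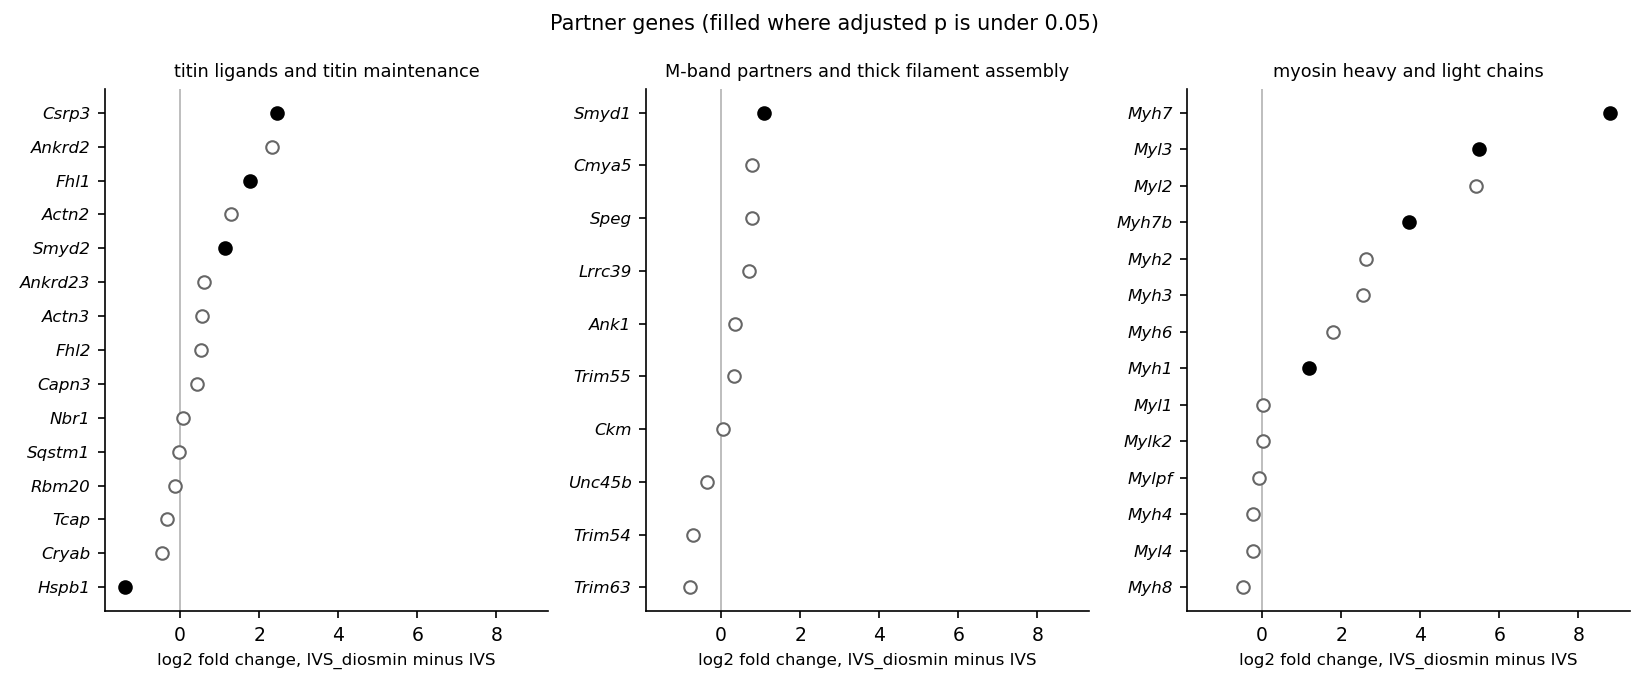
Log2 fold change, IVS_diosmin minus IVS, of each tested gene of the 3 partner lists (filled where the adjusted p is under 0.05). Most points of the titin and M-band lists lie within 1 of 0, and the slow myosin chains Myh7, Myl3 and Myl2 lie above 5.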

How the data were processed

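Poly(A) RNA of the semimembranosus muscle was sequenced in 4 libraries (2 per group), and the authors deposited a table of raw read counts by gene for each library. The submitters' processing notes name HISAT2 2.1.0, HTSeq and the build mm10; the annotation release and strand setting are not given in the sources used here. Positions and exon lengths were read from GENCODE M21 (also mm10), in which 55141 of 55401 identifiers matched without their version; the files carry later versions for Ttn and Mybpc1, so their exon models may differ slightly. HTSeq's 5 summary lines, which held 72.3% to 75.1% of all counts, were left out throughout because they belong to no gene.

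Counts were tested with edgeR 4.0.16 (R 4.3.3): filterByExpr, TMM scaling, a robust quasi-likelihood fit of IVS_diosmin minus IVS, 2-sided, Benjamini-Hochberg adjustment over 13533 genes and a threshold of 0.05. SE is the log2 fold change over the square root of F. Replicates differed beyond sampling noise (chi-square per degree of freedom 21.5 with diosmin and 31.3 in IVS). The script was tested on simulated data. The members and lists were chosen with earlier results of these data known. The rule for named genes took all members, every called gene of the partner lists with the 2 most abundant uncalled ones, and the 3 genes nearest in profile to each called member. Adora1, Gm44646, CT010467.1, Mybphl, Myl2 and Mylk2 were named outside it, after their values were seen. Of the marker lists, the 5 muscle fibre markers are named as the check of the tissue. The called endothelial markers and the called quality marker Rn7sk are named with their calls, and 2 cardiac markers as at 0. Slow fibre, fast fibre and Schwann cell markers are given by counts and sums. The lists for regenerating fibres, muscle spindle, smooth muscle, fibroblasts, macrophages and adipocytes had 0 genes called in the main edgeR fit. Their sums are not given. DESeq2 called 1 muscle spindle gene higher. Without a low-count filter, 1 regenerating fibre gene and 1 spindle gene were called higher and 1 adipocyte gene lower. With library totals only, 1 adipocyte gene was called lower. 1 gene was taken out of the M-band partner list as first written, and out of its counts, and is not reported here. The alternatives were other scalings, DESeq2 1.42.0, other filters, no robust estimation, a replicate term, another gene length and leaving out each library, where a lone library is assumed to vary like the other group. Depth limits the precision of low genes; PCR copies mean that reads do not count molecules.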

Additional observations from a re-analysis of the deposited data

How the results depend on the processing

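All 8 members kept their direction under the 12 alternatives run on them. Ttn, Obsl1, Myom1, Myom2 and Mybpc2 passed the threshold under none, and Myom3 under all. Mybph ranged from 1.42 to 2.04 when a library was left out and missed the threshold once (1.79, adjusted p = 0.0740, without IVS_diosmin replicate 1). Mybpc1 ranged from 0.77 to 1.05 when a library was left out, and missed the threshold in each such fit, with library totals only (0.82, adjusted p = 0.0648), without robust estimation (0.92, adjusted p = 0.0522) and with a replicate block (0.92, adjusted p = 0.117). The number of members past the threshold, 3, became 2 with library totals only, without robust estimation and with the replicate block, and 1 to 2 when a library was left out. The causes of these changes were not tested. With library totals only, the median log2 fold change of all genes was -0.11, a shift of -0.12 from 0.01 with TMM.

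The 400 genes called overall (159 higher, 241 lower) became 606 with DESeq2, 919 without a low-count filter, 93 with the replicate block (44 higher, 49 lower), and 38 to 366 when a library was left out: 366 (109 higher, 257 lower) without IVS replicate 1, 98 without IVS replicate 2, 38 (27 higher, 11 lower) without IVS_diosmin replicate 1 and 266 (140 higher, 126 lower) without IVS_diosmin replicate 2. Library totals gave 452, of which 115 were higher and 337 lower. The replicate numbers share no stated animal or batch, and same-numbered libraries did not deviate together (correlation over genes -0.00863), so the block is given here only. In the titin ligand list the number higher was 1 to 3 and the number lower 0 to 1 when a library was left out, and 0 were lower with the block. In the M-band partner list, DESeq2 gave 3 higher and 1 lower, no filter 3 higher and 2 lower, the block 0 higher, and leaving out a library 0 to 1 higher and 0 to 1 lower. In the myosin list, 4 to 7 were higher when a library was left out. With the longest transcript as gene length, 4 members changed rank in each group; leaving out a library changed the rank of 0 to 2 members in IVS and 0 in IVS_diosmin.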

Other observations

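Ttn has the longest transcript of the members, at 106824 bases, and the fold change of all genes tested was set out by the length of their longest transcript. The median log2 fold change was -0.02 over 1230 genes of up to 1000 bases, 0.02 over 5212 genes of more than 2000 and up to 4000 bases, 0.01 over 691 genes of more than 8000 and up to 16000 bases, and 0.13 over 29 genes longer than 16000 bases. None of those 29 genes passed the edgeR threshold in either direction, beside 2.96% of all genes tested. With 29 genes and that share, few or no calls would be likely in any case, so the count says nothing about length.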
